A study of Mus musculus with 9 samples.

Results

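The introns described here held fewer reads after 2 h with the Clk kinase inhibitor KH-CB19 than after 2 h with its solvent DMSO. The RNA was polyadenylated and came from the mouse embryonic stem cell line v6.5. They were chosen from the authors' group means at 2 h: the mean of the DMSO and the KH-CB19 value was at least 30 normalised reads, and the DMSO value was at least 1.5 times the KH-CB19 value after 1 was added to each. The rule found 310 introns in 282 genes, of 22228 introns in 7016 genes in the whole table. Values at 2 h were given for 3454 introns, those that the authors class as detained, and 2815 of these passed the minimum. By the same fold 391 of the 2815 gained reads and 2114 moved by less.

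The v6.5 cells received KH-CB19 dissolved in DMSO, at a dose labelled as 10 mM, or an equal volume of DMSO, and were harvested at 0 h, right after the addition, or at 2 h. Each of the 4 groups (DMSO 0 h, KH-CB19 0 h, DMSO 2 h, KH-CB19 2 h) held 2 libraries labelled as independent biological replicates, 8 in all, with RNA integrity numbers from 8.8 to 9.4. All groups carried DMSO and came from 1 line grown with serum and leukaemia inhibitory factor, and an untreated library made by another protocol was not analysed here. The values used are the authors' means over the 2 libraries of a group, so no spread between replicates can be set beside any of them. Of 14 embryonic stem cell marker genes 13 had an intron in the table, as did 0 of 13 germ layer and trophoblast markers and 1 of 8 fibroblast markers (Fn1).

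Detained introns stay in transcripts that are otherwise spliced and polyadenylated, and such transcripts are kept in the nucleus until the intron is removed or the RNA is degraded. Clk kinases phosphorylate SR proteins, splicing factors with a tail rich in arginine and serine, and this phosphorylation governs where SR proteins reside and how they act in exon recognition. Transcripts of the Clk kinases and of SR proteins are themselves known to be alternatively spliced, through cassette exons and through "poison" exons that carry an early stop codon.

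The introns with the lowest ratios lay on both sides of 1 alternative exon in a pair of paralogous kinase genes, so these exons are shown first. In the GENCODE M21 annotation (build GRCm38), introns 5 and 7 of Clk1 flank a 91-base exon that other transcripts skip, and introns 7 and 10 of Clk4 flank an exon of the same length. The exons were 93.4% identical, with 6 positions that differ, shown in capitals below. Their length leaves a remainder of 1 on division by 3, so skipping shifts the reading frame, and the protein of the skipped form of Clk1 is known to lack the kinase domain. The Clk1 exon lies at chr1:58420121-58420211 on the minus strand and the Clk4 exon at chr11:51273078-51273168 on the plus strand, both on GRCm38 and both written 5′ to 3′.
Clk1 skipped exon: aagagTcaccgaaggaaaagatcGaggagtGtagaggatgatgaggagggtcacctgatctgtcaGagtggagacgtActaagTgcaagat
Clk4 skipped exon: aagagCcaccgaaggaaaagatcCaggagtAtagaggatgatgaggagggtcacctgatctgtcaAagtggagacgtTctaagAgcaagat

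The second set of sequences comes from exons beside introns of SR genes. Introns 6 and 8 of Srsf7 lie on either side of a 460-base exon, and intron 5 of Srsf3 lies before a 456-base exon. Intron 4 of Srsf6 follows a 268-base exon, and intron 2 of Tra2b, the gene of an SR-related splicing activator, follows a 397-base exon. Each of these exons belongs to a transcript annotated as a target of nonsense-mediated decay, the pathway that destroys RNA with an early stop codon. The annotated stop codon starts at base 26 of the Srsf7 exon, 32 of the Srsf3 exon, 150 of the Srsf6 exon and 79 of the Tra2b exon. It is shown in capitals in 30-base windows, at chr17:80205042-80205071 (minus strand) for Srsf7, chr17:29039470-29039499 (plus) for Srsf3, chr2:162932949-162932978 (plus) for Srsf6 and chr16:22259169-22259198 (minus) for Tra2b, all on GRCm38.
Srsf7 stop codon in the exon: ttgagtcagtcgcctTGAttcagaatgtca
Srsf3 stop codon in the exon: cttctcaccaccctcTGAatctgcattagc
Srsf6 stop codon in the exon: gcagccttttgccatTAGacgcagggtgat
Tra2b stop codon in the exon: aagctcaggaataagTGAagctgaaatttg

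The 310 introns had a median authors' mean of 75.3 normalised reads in DMSO at 2 h (range 38.2 to 1640.5) and of 39.8 in KH-CB19 (range 9.24 to 1076). They made up 10.1% of the reads summed over all introns with 2 h values in DMSO and 5.14% in KH-CB19. Selection by size took 11.0% of the introns past the minimum, and 13.9% were taken in the direction of a gain. Of the 310, 123 had an adjusted p below 0.05 for the ratio at 2 h in the authors' deposited table, where 4.17% of all introns with 2 h values and 4.48% of those past the minimum were called lower. These counts use the contrast that chose the introns and are a description of them. Fewer cells that hold an intron and less of it per cell cannot be told apart in bulk RNA, and levels of spliced messenger RNA were not analysed here.

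Most of the introns lay near the lower fold limit. The ratio was 1.5- to 2-fold for 226 introns, 2- to 4-fold for 75 and 4-fold or more for 9, which belong to 7 genes. The 4 introns just inside the limit were intron 15 of Hnrpdl (514 reads in DMSO and 342 in KH-CB19), intron 24 of Ap1g1 (47.6 and 31.4), intron 6 of Usp22 (47.5 and 31.3) and intron 17 of Slc38a10 (109.9 and 72.9). Just outside it lay intron 2 of Usp1 (63.5 and 42.1), intron 13 of Lin9 (93.5 and 62.2), intron 8 of Gcfc1 (235 and 157) and intron 17 of Btrc (105 and 70.0). At the minimum, intron 28 of Herc4 (mean of both groups 30.1) and intron 17 of Ncapg (30.1) were inside, and intron 14 of Ikbkb (29.6) and intron 8 of Stt3b (29.5) were outside.

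**Figure D1:**
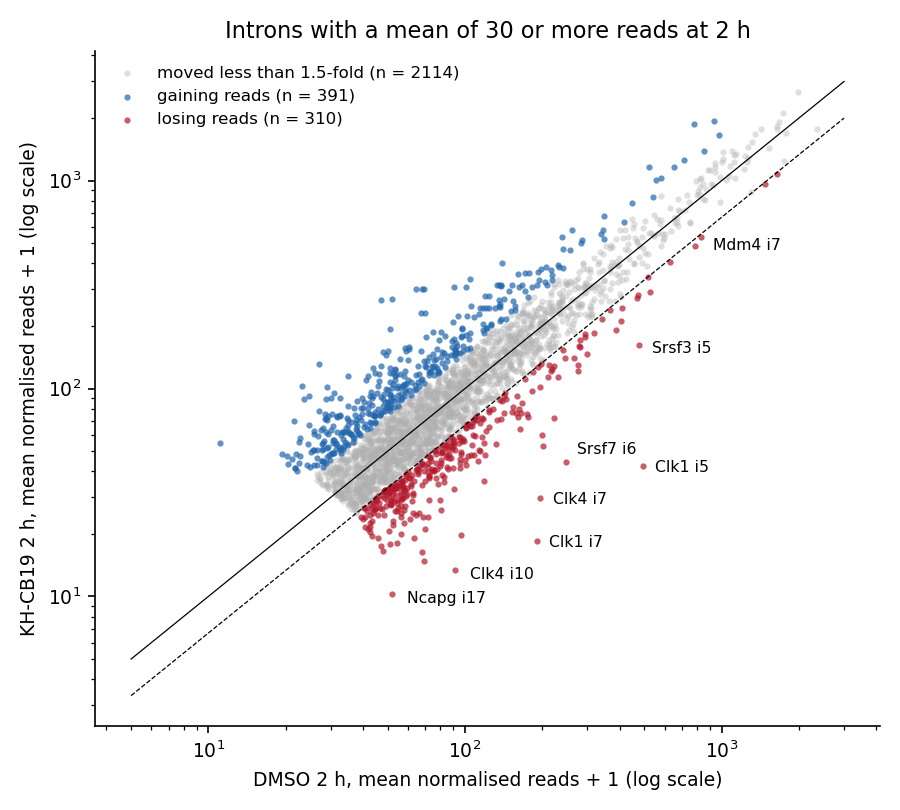
Authors' mean normalised reads plus 1 at 2 h in DMSO (horizontal, log scale) and KH-CB19 (vertical, log scale) for the 2815 introns past the minimum, 1 point per intron, with the solid line at equal values and the dashed line at 1.5-fold lower in KH-CB19. The 310 introns losing reads lie on or below the dashed line, most of them close to it, and introns of Clk1, Clk4 and Srsf7 lie farthest below.

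The kinases come first by role. Clk1 and Clk4 encode kinases of the family that the compound inhibits. Intron 5 of Clk1 (chr1:58477056-58477926 on mm9, 871 bp) had an authors' mean of 493 reads in DMSO and 41.6 in KH-CB19 at 2 h, 11.6-fold lower with 1 added to each. Intron 7 of Clk1 (chr1:58476578-58476964, 387 bp) had 189 and 17.5 reads, 10.3-fold lower. Intron 11, which is not next to the 91-base exon, had 466 and 272 reads, 1.71-fold lower. Within 1 gene the falls thus ran from 1.71- to 11.6-fold, and both introns beside the skipped exon had the larger falls.

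The same layout was seen in Clk4. Intron 10 (chr11:51086671-51087061, 391 bp) had 90.4 reads in DMSO and 12.3 in KH-CB19, 6.85-fold lower. Intron 7 (chr11:51085525-51086579, 1055 bp) had 195 and 28.8 reads, 6.60-fold lower. Intron 6, matched to a transcript annotated for nonsense-mediated decay, had 53.2 and 17.0 reads, 3.01-fold lower. Clk2 contributed intron 4, with 55.4 and 35.5 reads. In a list of CLK, DYRK and SRPK kinases, which share the phosphorylation of splicing factors, 7 of 11 introns past the minimum were among the 310 and 0 gained reads, beside 11.0% and 13.9% of all introns past the minimum. All 7 lay in 3 genes, Clk1, Clk2 and Clk4, of the 6 genes with introns past the minimum, and none in a DYRK or SRPK gene. Introns of 1 gene are not independent. The median log2 ratio of the 11 introns was -0.78, against 0.028 for all 2815.

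SR proteins, the substrates of these kinases, came next. Of 12 introns in SR genes past the minimum 5 lost and 1 gained reads, beside 11.0% and 13.9% of all introns past the minimum. The median log2 ratio of the 12 was -0.33. Intron 6 of Srsf7 (chr17:80604422-80604601 on mm9), at 180 bp the third shortest of the 310, had 247 reads in DMSO and 43.1 in KH-CB19, 5.62-fold lower. Intron 8 of Srsf7, on the other side of the exon with the stop codon, had 222 and 70.9 reads. Intron 9 of Srsf5 had 199 and 58.7 reads, intron 5 of Srsf3 had 477 and 161, and intron 4 of Srsf6 had 317 and 184. All 5 were shorter than 1000 bp, from 180 to 829 bp.

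Of 44 introns in genes for SR-related proteins, which carry similar domains and act with SR proteins, 9 (20.5%) lost and 7 gained reads. Of all introns past the minimum 11.0% lost and 13.9% gained reads. The median log2 ratio of the 44 was -0.10. Intron 2 of Tra2b had 405 reads in DMSO and 211 in KH-CB19. Bclaf1 and Sfswap each had a pair of such introns, as did Rbm25, whose intron 27 had 79.5 and 25.2 reads. Among other RNA-binding splicing regulators 4 of 45 (8.89%) lost reads, in Rbm5, Fxr1, Elavl1 and Fmr1. Fmr1, which encodes the RNA-binding protein FMRP, had 117 and 35.0 reads in intron 15. The authors' deposited table called 7 of the 9 SR-related introns and 3 of the 4 introns of other regulators lower.

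Counts for other steps of RNA metabolism follow, beside all introns past the minimum, of which 11.0% lost and 13.9% gained reads. In the core spliceosome, the particle that catalyses splicing, 0 of 50 introns lost and 8 gained reads. The exact 95% binomial interval for 0 of 50 has an upper limit of 7.11%. It covers counting error only and is no test, since the 50 introns lie in 36 genes and are not independent. Cleavage, polyadenylation and Integrator genes had 1 of 23, intron 15 of Zc3h14, a poly(A)-binding protein (94.5 reads in DMSO and 42.7 in KH-CB19), and 8 of the 23 gained. Nonsense-mediated decay and surveillance genes had 2 of 24 (8.33%), in Zcchc7 and in Upf3b, and 6 gained. Ribosomal proteins and translation factors had 2 of 49, in Abce1 and Eif4b, and heat shock and chaperone genes 0 of 34. The authors' deposited table called the intron of Zc3h14, 1 of the 2 surveillance introns and 0 of the 2 translation introns lower.

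**Figure D2:**
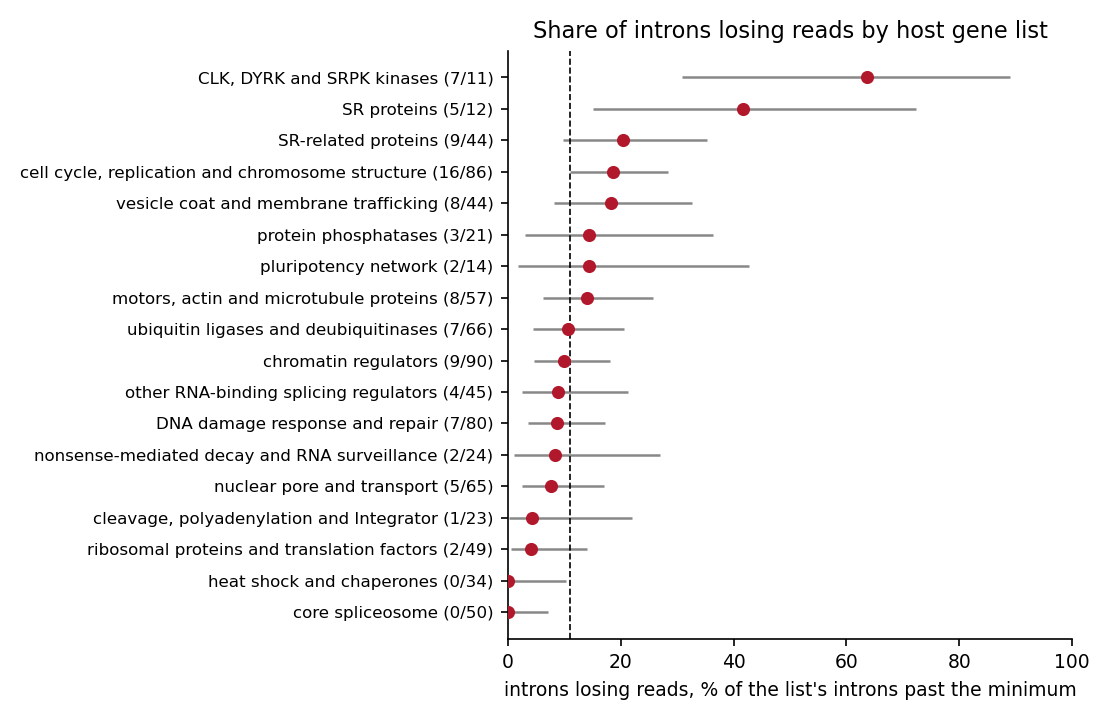
Percent of introns past the minimum that lost reads (horizontal) for lists of host genes with 10 or more such introns (vertical), with the exact 95% binomial interval as a bar, which covers counting error only, and the dashed line at 11.0%, the share over all introns past the minimum. Numbers in brackets are introns losing reads, counted by the fold alone, over introns past the minimum. They run from 7 of 11 for the kinases, all 7 in 3 genes, to 0 of 50 for the core spliceosome.

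Genes of mitosis and replication formed another list. Of 86 introns in genes for the cell cycle, replication and chromosome structure 16 (18.6%) lost and 12 gained reads, beside 11.0% and 13.9% of all introns past the minimum. The median log2 ratio over the 86 was -0.068. These counts are by fold alone. The authors' deposited table called 5 of the 16 lower at adjusted p below 0.05, beside 6 of the 7 kinase introns, 5 of the 5 SR introns and 123 of all 310. Intron 17 of Ncapg, a condensin subunit, had 51.03 reads in DMSO and 9.24 in KH-CB19, 5.08-fold lower. Intron 21 of Smc1a, a cohesin subunit, had 385 and 190.2 reads. The list also held introns of 3 genes of the origin recognition complex (Orc2, Orc3 and Orc4), of Top2a, which encodes a topoisomerase, and of Ccnt2, a cyclin of the elongation factor P-TEFb. Orc3 and Top2a held a pair of such introns each, as did Ccnt2.

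Cytoskeletal and membrane genes followed. In motors, actin and microtubule proteins 8 of 57 (14.0%) lost and 9 gained, beside 11.0% and 13.9% of all introns past the minimum. Macf1, which joins microtubules to actin filaments, had in its intron 94 95.2 reads in DMSO and 18.8 in KH-CB19 (4.87-fold lower), and intron 4 of Mapre1, a protein of microtubule ends, had 62.1 and 18.0. Spna2, a spectrin gene, held 3 of these introns (1.58- to 1.87-fold lower). In vesicle coat and membrane trafficking 8 of 44 (18.2%) lost and 2 gained, with a median log2 ratio of -0.25 over the 44. Intron 6 of Copa, a COPI coat subunit, had 79.1 and 28.2 reads, and intron 21 of Trappc10, a subunit of a tethering complex, had 89.7 and 31.8. Among protein phosphatases 3 of 21 (14.3%) lost and 5 gained, and intron 11 of the receptor phosphatase gene Ptprf had 68.1 and 13.9 reads, 4.64-fold lower. The authors' deposited table called 5 of the 8 motor, actin and microtubule introns, 2 of the 8 trafficking introns and 2 of the 3 phosphatase introns lower. Outside the lists stood intron 11 of Clcn3, a chloride transporter (67.2 and 15.4 reads, 4.15-fold lower), and intron 8 of Mtpap, which adds poly(A) in mitochondria (199.9 and 51.9 reads, 3.80-fold lower).

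Nuclear regulators had shares of introns losing reads near the 11.0% of all introns past the minimum, of which 13.9% gained reads. Chromatin regulators had 9 of 90, among them introns of Baz1b, Bptf and Rbbp4, and 16 gained. DNA damage response genes had 7 of 80 and 13 gained, and ubiquitin ligases and deubiquitinases had 7 of 66 and 16 gained. Nuclear pore and transport genes had 5 of 65 and 10 gained. The list of the pluripotency network had 2 of 14, in Tcf3 and Stat3, and 3 gained. In the annotation used, Tcf3 names an E protein gene, so its place in that list was by symbol only. The authors' deposited table called 3 of the 9 chromatin, 1 of the 7 DNA damage and 4 of the 7 ubiquitin introns lower. It also called 1 of the 5 nuclear pore and 1 of the 2 pluripotency introns lower. In all, 101 of the 310 introns lay in genes of the lists and 209 in genes outside them.

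The introns with most reads were not those with the largest ratios. Intron 2 of Zc3h11a, which encodes a zinc finger protein, had 1640.5 reads in DMSO and 1076 in KH-CB19, 1.52-fold lower. Intron 13 of Nasp, a histone chaperone, had 1472 and 958 reads. Intron 7 of Mdm4, a regulator of p53, had 829.8 and 533 reads. The next by DMSO reads were intron 5 of Csda, a cold shock domain protein (784 and 485), and intron 9 of Mkrn1, a ubiquitin ligase (627 and 404). Of the 10 introns with most DMSO reads, 1 per gene, intron 5 of Clk1 and intron 5 of Srsf3 were more than 2-fold lower, and the other 8 were less than 2-fold lower.

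Reads at 0 h come from other libraries than the 2 h means. The rule also required 2 h values, which were given for detained introns only, and nearly all of these are above expectation at 0 h. The counts above expectation thus follow from that requirement and are a description. In the authors' deposited table, which compares observed reads with an expected number, 306 of the 310 were above expectation in DMSO at 0 h at adjusted p below 0.05, as were 28.2% of all introns with a value and 98.7% of introns with 2 h values. The median log2 ratio of observed to expected in the authors' deposited table was 1.73 for the 310 (quartiles 1.38 and 2.13), 1.73 for introns that moved by less and 1.78 for those that gained. In KH-CB19 at 0 h, 296 of the 310 were above expectation in the authors' deposited table, as were 27.6% of all introns with a value and 93.7% of introns with 2 h values. The excess at 0 h was thus close to that of other detained introns in its median. Detained introns stand apart from the rest of the table by their class, and the sources used here do not give how the class and the expected number were made.

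Several kinase and SR introns lay at the low end of the excess. Intron 6 of Clk4 had 76.0 observed and 77.0 expected reads in DMSO, for which the authors' deposited table gave -0.019 on the log2 scale, and it was the only one of the 310 below 0. Intron 9 of Srsf5 (0.50), intron 7 of Clk1 (0.65) and intron 11 of Clk1 (0.65) were the next lowest in the authors' deposited table among introns with at least 50 observed reads. At the high end stood introns 26 of Zmym2 (3.61), 32 of Pds5b (3.62) and 41 of Ttc37 (3.95) in the authors' deposited table, with 61.0, 129.0 and 62.0 observed reads. The highest value in the authors' deposited table, 8.26 for the 108-bp intron 3 of Slc35a4, rested on an expected mean of 0.5, the smallest step above 0 in these means.

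The ratio of KH-CB19 to DMSO at 0 h was computed from the observed means and centred on the median of all 18080 introns with both values. The median log2 ratio of the 310 was -0.083 (quartiles -0.24 and 0.075), beside -0.035 for introns that moved by less and -0.082 for those that gained. Below 0 were 198 of the 310 (63.9%), beside 61.4% of introns that gained, 55.7% of those that moved by less and 49.8% of all introns with both values. Introns that later lost and introns that later gained reads thus had nearly the same median at 0 h.

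For the 9 introns with 4-fold or larger ratios at 2 h the median centred log2 ratio at 0 h was -0.34, beside -0.070 for the 2- to 4-fold introns and -0.083 for the 1.5- to 2-fold introns. Of the 9, 7 were below 0. The Clk1, Clk4 and Srsf7 introns among the 9 lay from -0.51 to -0.31. The others were intron 17 of Ncapg (-0.34), intron 94 of Macf1 (-0.093), intron 11 of Clcn3 (0.051) and intron 11 of Ptprf (0.39). Intron 5 of Clk1 had 579.0 observed reads in DMSO and 364.5 in KH-CB19 at 0 h (centred log2 ratio -0.35). Intron 8 of Srsf7, with 306.5 and 143.5 reads, had the lowest ratio of the introns with 50 or more reads in both groups (-0.77). All 7 kinase introns and all 5 SR introns were below 0, with medians of -0.31 and -0.38. Over all 11 kinase and all 12 SR introns past the minimum, those that did not lose reads included, the medians were -0.31 and -0.36, beside -0.044 for all 2815. The expected reads moved in the same direction, with medians of -0.24 for the 9 introns, -0.24 for the kinase introns and -0.31 for the SR introns. At the other end, intron 8 of Ppp2r4 (0.53), intron 12 of Vill (0.51) and intron 24 of Tcf3 (0.51) had more reads in KH-CB19 at 0 h, and Tcf3 had 396.0 reads in DMSO and 450.5 in KH-CB19. The 2 libraries per group were harvested right after the addition, and whether these differences exceed their spread was not tested.

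The 2 h means were set against the 0 h means within each treatment. The 0 h means are unscaled counts and the 2 h means are normalised, so a value shows an intron's change only relative to other introns. On a log2 scale centred on the median of introns with 2 h values, the 310 had a median of 0.094 in DMSO and of -0.71 in KH-CB19. Introns that moved by less had medians of 0.026 and 0.024, and those that gained -0.14 and 0.81. Below 0 in KH-CB19 were 307 of the 310 (99.0%), 46.7% of introns that moved by less and 1.02% of those that gained. For the 9 introns with the largest ratios the medians were 0.058 and -2.40. Intron 5 of Clk1 was at 0.086 in DMSO and -3.15 in KH-CB19. Intron 94 of Macf1 differed from most, since it was at 1.08 in DMSO and -1.18 in KH-CB19, so that a rise in DMSO relative to other introns contributed to its ratio. Because the 2 h means chose the introns, these values are a description.

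**Figure D3:**
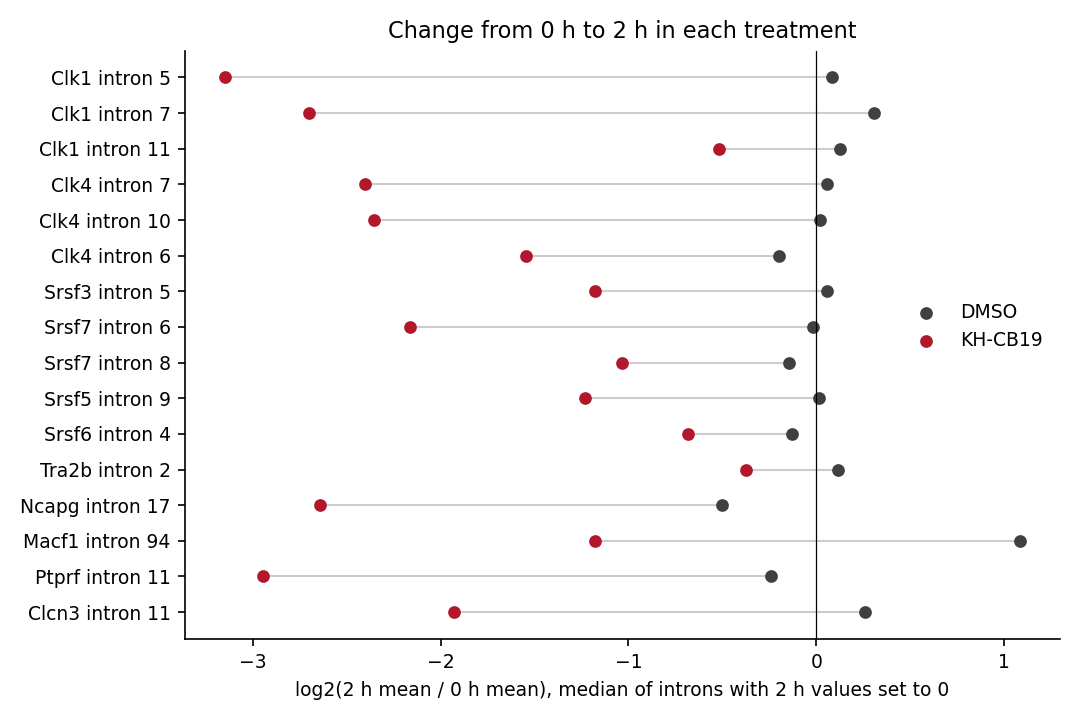
Log2 ratio of the authors' normalised 2 h mean to the authors' unscaled 0 h mean (horizontal, with the median of introns with 2 h values set to 0) for 16 introns losing reads (vertical), in DMSO (dark points) and KH-CB19 (red points). Intron 5 of Clk1 spans from 0.086 in DMSO to -3.15 in KH-CB19, and intron 94 of Macf1 has the highest DMSO value, 1.08.

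Most host genes held 1 of these introns. Of the 282 host genes 258 had 1, 20 had 2 and 4 had 3 (Clk1, Clk4, Spna2 and Zfml). In 113 host genes another intron passed the minimum as well. Of these 150 other introns 132 moved by less than the fold and 18, in 16 genes, gained reads. Their median log2 ratio was -0.085 and 57.3% were below 0, beside a median of 0.091 and 40.8% for all introns past the minimum outside the 310. The rule removed the low introns of the host genes from this set, so the comparison is a description.

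Losses and gains could stand in 1 gene. In Ptprf, intron 11 lost reads while introns 24 (64.7 reads in DMSO and 106 in KH-CB19) and 25 (28.1 and 45.7) gained. In Mybl2, which drives genes of cell division, intron 18 had 297 and 146 reads and intron 15 had 648 and 1162. In Nup153, a nuclear pore protein, introns 23 (118.9 and 46.7) and 25 (58.6 and 30.2) lost and intron 27 (90.9 and 137) gained. No members of a pair in 1 gene overlapped each other. At 0 h the 997 other introns of the host genes with values in both groups had a median centred log2 ratio of -0.015.

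The 310 introns were longer than the others past the minimum, though this did not hold without the minimum. Their median length was 2321.5 bp (quartiles 1314 and 3432), beside 1833 bp for introns that moved by less and 1851 bp for those that gained. Introns of 1000 bp or less made up 16.8% of the 310, 29.2% of those that moved by less and 24.3% of those that gained, and introns over 5000 bp 10.0%, 9.84% and 7.42%. With no minimum on reads the medians were 1587, 1547 and 1637.5 bp, so that the order changed. With a minimum of 50 they were 2720, 2022 and 2032.5 bp, and with a 2-fold limit 2537.5, 1875 and 1928 bp. In DMSO at 2 h the median of the authors' means was 75.3 reads for the 310, 74.2 for introns that moved by less and 51.8 for those that gained, values that the selection used. The longest were intron 6 of Zcchc7 (17488 bp), intron 21 of Smc1a (10810 bp) and intron 6 of Tor1aip2 (10159 bp), and the shortest were intron 3 of Slc35a4 (108 bp), intron 7 of Ccnt2 (121 bp) and intron 6 of Srsf7. The 9 introns with 4-fold or larger ratios had a median of 1055 bp.

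**Figure D4:**
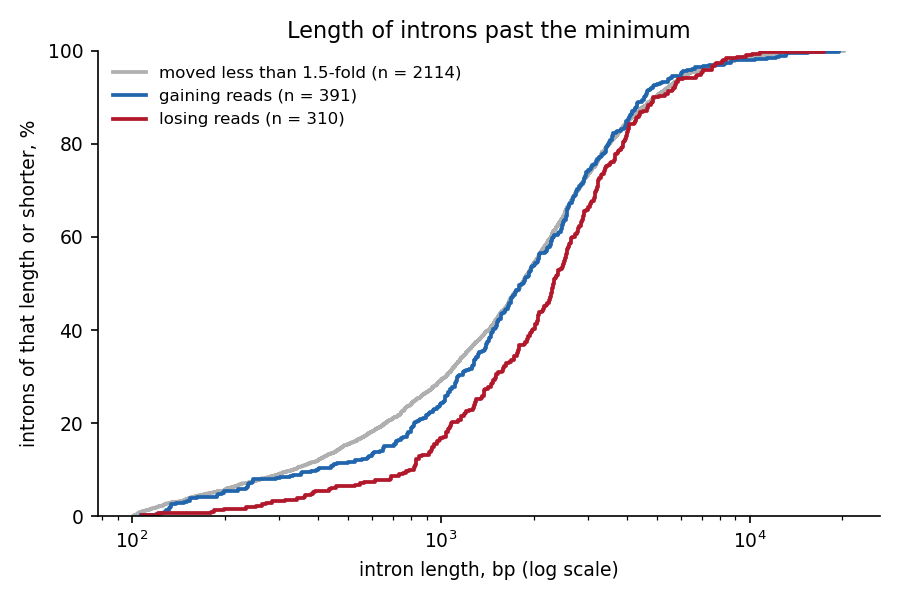
Cumulative percent (vertical) of introns of a given length or shorter (horizontal, bp, log scale) for the 310 introns losing reads, the 391 gaining reads and the 2114 that moved by less, all past the minimum of 30 reads. The line of introns losing reads lies to the right of the others over most of its range, with a median of 2321.5 bp against 1851 and 1833 bp.

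Position was taken from the annotated transcript to which an intron could be matched by gene, strand and exact length. This matched 300 of the 310 introns, and 2431 of all 2815 (86.4%), so members were matched more often than others. Between coding exons lay 93.7% of the 300, with 1.33% between exons of the 5′ UTR and 2.67% in the 3′ UTR. The median intron was 0.75 of the way along the transcript's introns, as for introns that moved by less (0.75), beside 0.71 for those that gained. Last introns made up 6.00% of the 300, 6.29% of those that moved by less and 2.99% of those that gained. By the intron numbers of the table the median relative position was 0.84, beside 0.846 for introns that moved by less and 0.81 for those that gained. The last intron listed for its gene made up 28.4%, 30.7% and 27.9% of these classes. The table's numbers are not those of 1 transcript: the highest for Clk1 is 17, and its matched transcript has 12 introns.

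More of these introns than of the other classes lay beside an exon annotated as skipped, a description with no test. Of the 300, 114 (38.0%) lay next to an exon that another transcript of the gene skips, beside 28.1% of introns that moved by less and 20.1% of those that gained. The share was 42.7% of the 82 matched introns with 2-fold or larger ratios and 36.2% of the other 218. A transcript annotated as retaining the intron existed for 13.0%, 12.2% and 6.89% of the 3 classes. The downstream exon had a median of 146 bases, beside 120 for introns that moved by less and 124.5 for those that gained, and the upstream exon 132, 116 and 128 bases.

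Fewer of them were followed by an exon that starts with G, which was 1 of many annotated features compared and is a description with no test. The first base of the downstream exon was G in 34.7% of the 300 (95% binomial interval 29.3 to 40.3), in 46.2% of introns that moved by less (43.9 to 48.5) and in 46.1% of those that gained (40.7 to 51.6). The last base of the upstream exon was G in 75.3%, 78.0% and 79.9%. Exact intervals cover counting error only, and introns of 1 gene are not independent. The joined exons of the 4 introns with 4-fold or larger ratios outside the kinase and SR genes show both cases, since the third capital, the first base after the intron, is G in Ncapg and Clcn3 and C in Macf1 and Ptprf. The first and second capitals are the last bases before the intron. The exons span chr5:45693752-45695815 (plus strand) for Ncapg, chr4:123355056-123361027 (minus) for Macf1, chr4:118231486-118235103 (minus) for Ptprf and chr8:60922790-60927418 (minus) for Clcn3, on GRCm38.
Ncapg intron 17 joined exons: tctcaggattatcAGGccttaacagtacat
Macf1 intron 94 joined exons: atgacccctgccgAGCacgaggcagaacta
Ptprf intron 11 joined exons: gtacagcacagtcCACcccatcagcccctc
Clcn3 intron 11 joined exons: ctgctgcgtgcttAGGtggtgtgacaagaa

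**Figure D5:**
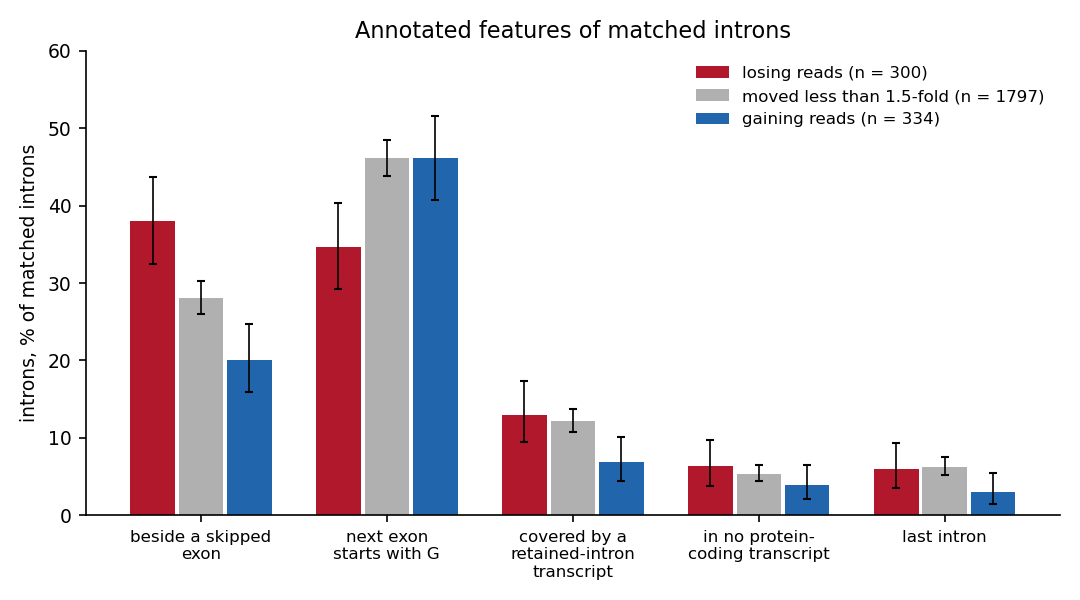
Percent of matched introns (vertical) with each of a selection of annotated features (horizontal), from more features compared. The classes are introns losing reads (n = 300), moved by less than 1.5-fold (n = 1797) and gaining reads (n = 334). Error bars are exact 95% binomial intervals, which cover counting error only. Introns losing reads lie next to a skipped exon in 38.0% of cases against 28.1% and 20.1%, and have a downstream exon that starts with G in 34.7% against 46.2% and 46.1%.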

How the data were processed

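Polyadenylated RNA of 8 libraries in 4 groups was sequenced by a strand-specific, paired-end protocol, per the labels' protocols. Per the submitters' processing notes, the authors used DESeq, Cufflinks 2.1.1, TopHat2 2.0.9, Bowtie 1.0.0, bedtools 2.17.0 and SAMtools 0.1.19 on build mm9. Per the file headers, the deposited table gives for each intron the authors' observed and expected mean counts at 0 h, the log2 ratio of the pair and its adjusted p-value. For detained introns it also gives the authors' normalised mean signal of each group at 2 h, with the log2 ratio between the groups and an adjusted p-value. Library depths are not known from these means.

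From these means the introns were selected (minimum 30, fold 1.5, 1 added), 0 h ratios were centred, and medians and shares were computed with Python 3.11.15, pandas 2.3.3 and scipy 1.17.1. No new test per intron was possible. The members and the 23 gene lists were chosen with earlier results of these data known. Introns were named by rank of 2 h ratio, DMSO reads, length, 0 h excess or 0 h ratio, by membership of a list, or as several in 1 gene; others were chosen after their values were seen. Sequences come from GENCODE M21 (GRCm38) transcripts, and no mm9 sequence was used. The scripts were tested on simulated data. One item that the naming rule would take, and the gene list that holds it, are not reported here.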

Additional observations from a re-analysis of the deposited data

How the results depend on the processing

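Only group means were used, so no replicate could be left out. No paired analysis was possible because the values are means over the libraries of a group. Position in an annotation of build mm9 was not run. Of 47 values recomputed under other settings, 29 stayed within the 95% interval of the main median or share over introns (counts, within 1.5 times). The other 18 moved by more. A change of direction was found in 0, but only log2 ratios could show one, since counts, lengths, positions and shares are never negative. The number of introns was 181 with a minimum of 50 reads, 84 with a 2-fold limit, 123 with only those called in the authors' deposited table and 467 with no minimum. Except with no minimum, the sets were parts of the 310. The median length was 2720 bp with a minimum of 50, 2856 bp for those called and 1587 bp with no minimum. The median log2 ratio of observed to expected reads at 0 h, from the authors' deposited table, was 1.64 in DMSO and 1.57 in KH-CB19 with a 2-fold limit, and 1.87 and 1.86 with no minimum. The median 0 h ratio of KH-CB19 to DMSO was -0.042 when centred on the other introns past the minimum. The relative position was 0.787 with a 2-fold limit, 0.75 for those called and 0.75 in the matched GENCODE transcript, and last introns made up 21.4%, 17.1% and 6%. The GENCODE setting was chosen after seeing the data. The cause of these shifts was not tested, apart from the fewer or further introns that each limit takes.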
